A study of Homo sapiens with 34 samples.

Results

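SLC15A1, RDH16, ELAC1, EPS8L3, KIAA1614, SALL1, PCMTD2 and MZT1 are 8 of the 19974 protein-coding genes examined in 34 lists of H3K9 methylation peaks from 2 cancer cell lines. They were chosen by the number of libraries of each line with a peak overlapping the gene or the 2 kb on either side: many in COLO320 DM, few in PC3 DM. The presence of a peak in each line is therefore how the genes were chosen and is given as a description, with no test. Each gene had a peak in 17 or 18 of 18 COLO320 DM libraries and in 0 to 2 of 16 PC3 DM libraries.

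Methylation of histone H3 at lysine 9 is written by enzymes such as SUV39H1, SETDB1 and G9a and is bound by HP1 proteins. Its higher degrees mark compacted, mostly silent chromatin over repeats, zinc finger gene clusters and genes that a cell type does not use. The 8 genes belong to no common pathway. They are a peptide transporter, a retinol dehydrogenase, a tRNA-processing enzyme, a relative of an actin regulator, a transcription factor, a methyltransferase-like protein, a spindle protein and a protein of little known function.

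Libraries were made by CUT&Tag: a transposase is tethered to the antibody on chromatin and cuts the DNA around it, and the released fragments are sequenced. The antibody is called anti-H3K9me in the labels, without a degree of methylation. COLO320 DM comes from a colorectal adenocarcinoma and PC3 DM from a prostatic adenocarcinoma. Both carry extrachromosomal DNA, circles outside the chromosomes, to which the series as a whole is devoted. All cells, controls included, were transfected with 700 ng of a guide RNA plasmid, and 50000 nuclei were used per library after 3 days. COLO320 DM had 3 libraries each of the plasmids ecSE1, ecSE2, ecSE3, ecSE4 and ecSEcombo and 3 of the vector. PC3 DM had 3 libraries each of ecSE1, ecSE2, ecSE6 and ecSEcombo, 2 of ecSE7 and 2 of the vector. The labels do not say which effector protein the guides direct, where the targeted elements lie, or what the combination holds. The lines also differed in medium and transfection reagent, and their lists carry different series of library names, so line, culture and processing series cannot be told apart. Peak lists of this mark hold no expression values, so the identity of the lines was not checked against marker genes.

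The lists held from 9385 to 125214 peaks as deposited. The longest were COLO320 DM ecSE1 replicate 2, with 125214, and PC3 DM ecSEcombo replicate 1, with 102290. Read totals are unknown. Local background in 1000 sampled peaks per list had a median of 0.727 to 2.31 fragments in COLO320 DM libraries and 0.213 to 0.972 in PC3 DM libraries, and summits had a median of 9 to 19 and of 6 to 11 fragments. The labels do not say whether replicates were grown apart, so the p-values below describe variation among libraries that may be technical. A library without a peak is one in which no stretch passed the authors' false discovery rate of 0.001, which does not show that the mark was absent.

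Of the 6 members in the promoter table, only RDH16 had peaks reaching the bases just before the gene, so that promoter is printed with the one of SLC15A1, which no peak touched. Both are the 250 bases before the gene's first base, 5′ to 3′ on the gene's strand, from RefSeq on GRCh38.p14, the build called hg38 in the labels. Capitals mark bases that peaks covered in at least 9 of 18 COLO320 DM libraries.
RDH16, chr12:56957609-56957858, minus strand: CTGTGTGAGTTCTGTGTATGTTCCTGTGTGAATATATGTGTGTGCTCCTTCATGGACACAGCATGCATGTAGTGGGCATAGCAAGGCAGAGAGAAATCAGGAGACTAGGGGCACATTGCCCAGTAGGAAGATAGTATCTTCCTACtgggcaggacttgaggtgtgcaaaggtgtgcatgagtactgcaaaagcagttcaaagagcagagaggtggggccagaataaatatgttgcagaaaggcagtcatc
SLC15A1, chr13:98752673-98752922, minus strand: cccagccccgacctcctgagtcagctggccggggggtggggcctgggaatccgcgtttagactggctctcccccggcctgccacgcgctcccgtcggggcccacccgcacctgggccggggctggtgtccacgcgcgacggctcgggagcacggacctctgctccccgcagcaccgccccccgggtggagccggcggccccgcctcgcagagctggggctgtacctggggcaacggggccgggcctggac

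The RDH16 promoter was touched by peaks in 11 COLO320 DM libraries, against 0 in PC3 DM, and 145 of its 250 bases are in capitals. It holds 0 copies of CG, a motif that reads the same on both strands, and 6.06% of the 35116 promoters in the table hold 0. Its bases include the inverted repeat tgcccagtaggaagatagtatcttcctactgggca, with perfect arms of 17 bases around 1 base, starting 134 bases before the gene. Arms at least that long, with at most 10 bases between them, were found in 5 of the 35116 promoters, or 0.0142%. The SLC15A1 promoter holds 26 copies of CG, against a median of 11 over all promoters, and 19.6% of promoters hold as many or more. ELAC1, PCMTD2 and MZT1 had 28, 34 and 32 copies of CG, and EPS8L3 had 4. Peaks touched the promoters of these 4 genes in 0 libraries of either line. KIAA1614 and SALL1 did not match the promoter table.

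Across the 8 genes, 140 of 144 pairs of a gene and a COLO320 DM library had a peak, against 7 of 128 pairs in PC3 DM. The longest COLO320 DM list, whose peaks were also the narrowest of the line with a median width of 192 bp, had a peak over all 8 genes, and 132 pairs remained without it. Of the 7 pairs in PC3 DM, 3 came from that line's longest list. Over all 10067 genes that could be tested, Fisher's exact test with Benjamini-Hochberg adjustment called 1.25% as having a peak more often in COLO320 DM, a background printed here only for scale, since the same contrast chose the genes. Exactly 12 protein-coding genes met the bounds of at least 17 COLO320 DM and at most 2 PC3 DM libraries: the 8 members, PDX1, POU5F1B, EEF1A1 and URAD. Just inside stood MZT1, with 18 and 2 libraries, and SALL1 and PCMTD2, with 17 and 1 each. Just outside were NQO2 and STON1, with 17 and 3 each, NECAB2, with 16 and 2, and LOC124901637, with 16 and 1. Of 906 genes with a peak in at least 17 COLO320 DM libraries, 894 also had one in at least 3 PC3 DM libraries.

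**Figure D1:**
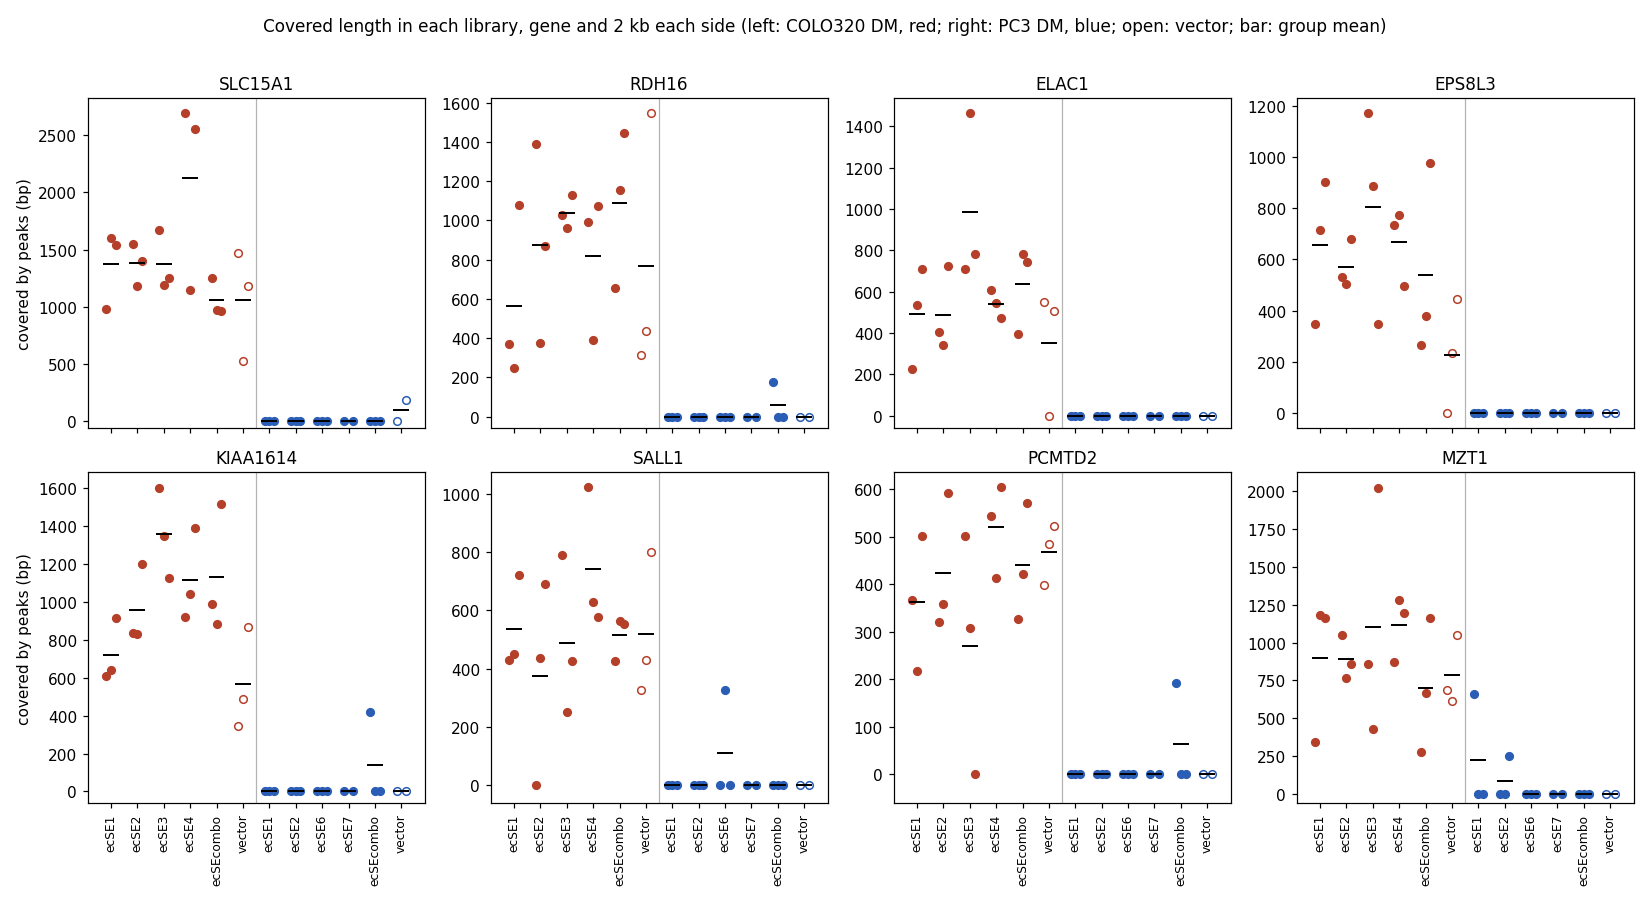
Length covered by peaks (bp, vertical axis) in each library over each gene and 2 kb on each side, by plasmid, with COLO320 DM in red on the left and PC3 DM in blue on the right of each panel. Open circles are vector libraries and bars are group means. For RDH16 the COLO320 DM libraries run from 248 to 1547 bp and the highest PC3 DM library is at 178 bp.

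In each gene 1 site recurred in 17 or 18 COLO320 DM libraries, and SLC15A1, the longest of the 8 genes, had many peaks away from it as well. Summits were joined into a site where neighbours lay within 500 bp, so a site could span more, up to 1247 bp at MZT1. Of 191 peaks in COLO320 DM over the 8 genes, 154, or 80.6%, belonged to the main site of their gene, and all 140 gene and library pairs with a peak had one there. Of the 37 peaks elsewhere, 23 were in SLC15A1, where 18 of 41 peaks belonged to the main site. The lists were called library by library, but the genes were chosen for peaks that recur in COLO320 DM, which favours a recurring site. How often other genes with recurring peaks have such a site was not examined. PC3 DM had a peak at the main site in 1 library each for RDH16 and KIAA1614 and in 0 for the other genes, which the choice of genes with few PC3 DM peaks largely fixes. Main sites lay inside SLC15A1, ELAC1, KIAA1614, PCMTD2 and MZT1, upstream of RDH16, beyond the 3′ end of EPS8L3, and beyond the higher-coordinate end of SALL1. Exon and intron positions were not analysed here, and all coordinates below are on hg38.

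**Figure D2:**
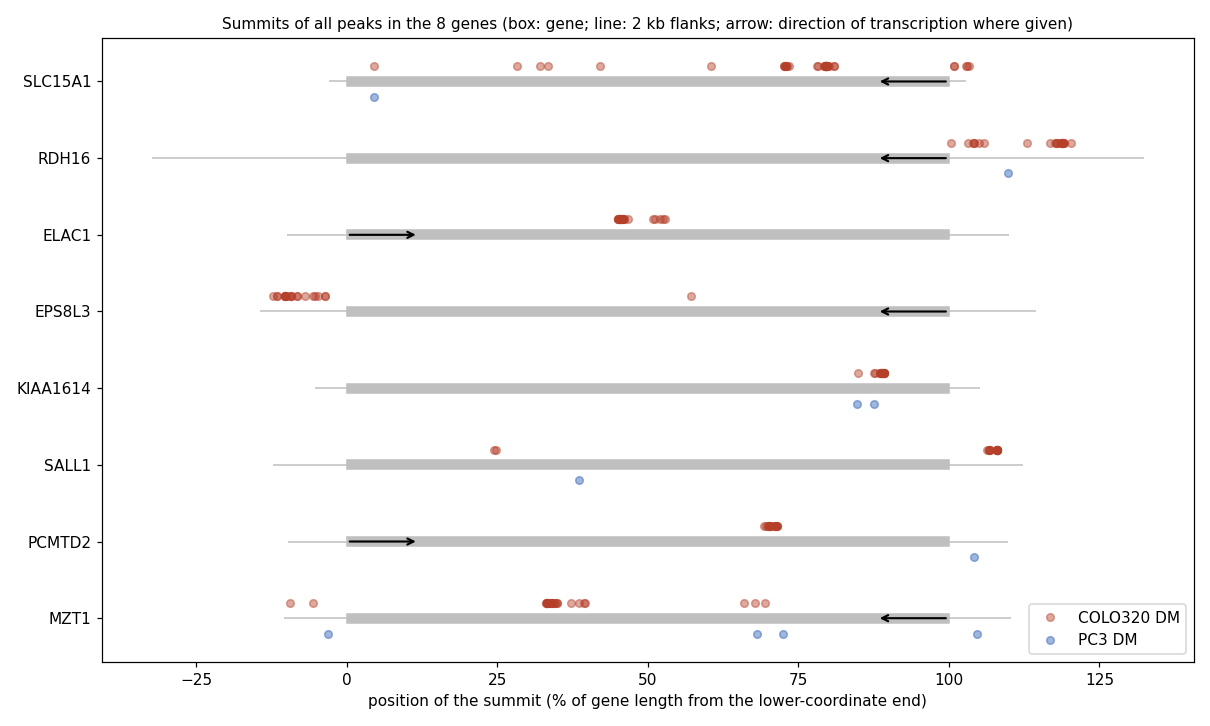
Position of every peak summit over the 8 genes, as a percentage of gene length from the end with the lower coordinate, with COLO320 DM summits above each gene and PC3 DM summits below it. Boxes are genes, thin lines the 2 kb on either side and arrows the direction of transcription where the tables used give it. The main site has its median summit at 79.5% of SLC15A1 and 70.3% of PCMTD2. SLC15A1, the longest of the 8 genes, also has 23 COLO320 DM summits elsewhere, while PCMTD2 has 0.

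SLC15A1 encodes PEPT1, the proton-coupled transporter that takes up di- and tripeptides in the small intestine. It lies on chromosome 13 from 98683801 to 98752672 on the minus strand. Peaks covered from 530 to 2690 bp of it in COLO320 DM libraries, median 1250 bp, and in PC3 DM only vector replicate 2 had a peak, of 191 bp. The ranges of the lines do not overlap, which describes the contrast that chose the gene. All 18 COLO320 DM libraries shared a main site with summits from 98738428 to 98738948, which is 14088 bp inside the gene from its start at the median summit. Every one of these libraries covered the 392 bases from 98738418 to 98738809.

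By medians over libraries, the SLC15A1 site was the highest of the 8 in fragments and in place in the list. Its fold over local background, which here and below is the authors' value for the peak, ran from 4.6 to 7.59, median 6.01. Its best peak stood at the top 2.34% of its list by q-value at the median, and at 0.501% in ecSE2 replicate 3. The summit held from 32 to 110 fragments, median 73.5, over a local background of 5.58 to 14.2. That background was 6.27 times the median of sampled peaks of the same list at the median library, from 4.42 to 9.47 times. Local background rises with depth and with DNA copies, and their part in the site's height was not tested.

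SLC15A1 had the most sites of the 8 genes, 12 in all, of which 6 occurred in a single COLO320 DM library. Its window, with the 2 kb on either side, was also the longest, 72872 bp against 10178 to 42718 bp. Numbers of sites were not scaled by length. The main site held 69.6% of its covered length. A second site, with summits from 98733769 to 98734342, occurred in 8 COLO320 DM libraries, 7 perturbed and 1 vector, with folds of 2.87 to 4.24. Upstream of the start, 2 COLO320 DM libraries had summits between 98753221 and 98753307 and 3 had them between 98754618 and 98754923.

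RDH16 encodes a short-chain dehydrogenase of liver that oxidizes retinol and some steroids. The gene occupies chromosome 12 from 56951431 to 56957608 on the minus strand. Peaks covered from 248 to 1547 bp in COLO320 DM libraries, median 977.5 bp, and the single PC3 DM peak, in ecSEcombo replicate 1, was 178 bp. The ranges of the lines do not overlap, again a description of the contrast that chose the gene. Its 23 COLO320 DM peaks formed 1 site, with summits from 56957634 to 56958859 and a median 1147 bp upstream of the start, so most of it lies before the promoter printed above. Without the 2 kb on either side, 6 COLO320 DM libraries had a peak in RDH16.

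At RDH16 the edge away from the gene was the same from library to library. In 15 of 18 COLO320 DM libraries a peak ended at 56958934, and the 171 bases from 56958687 to 56958857 were covered in 17. The exception was vector replicate 2, whose only peak ended at 56958084. Coverage had a second, lower rise nearer the gene, which in some libraries was joined to the first. The fold ran from 4.49 in vector replicate 2 to 10.6 in ecSE1 replicate 3, median 5.81, and the summit held 16 to 69 fragments. The peak's place in its list ranged widely, from the top 0.59% to 69.9%, median 12.1%. The PC3 DM peak, from 56958076 to 56958253, held 7 fragments at its summit and lay between these rises.

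**Figure D3:**
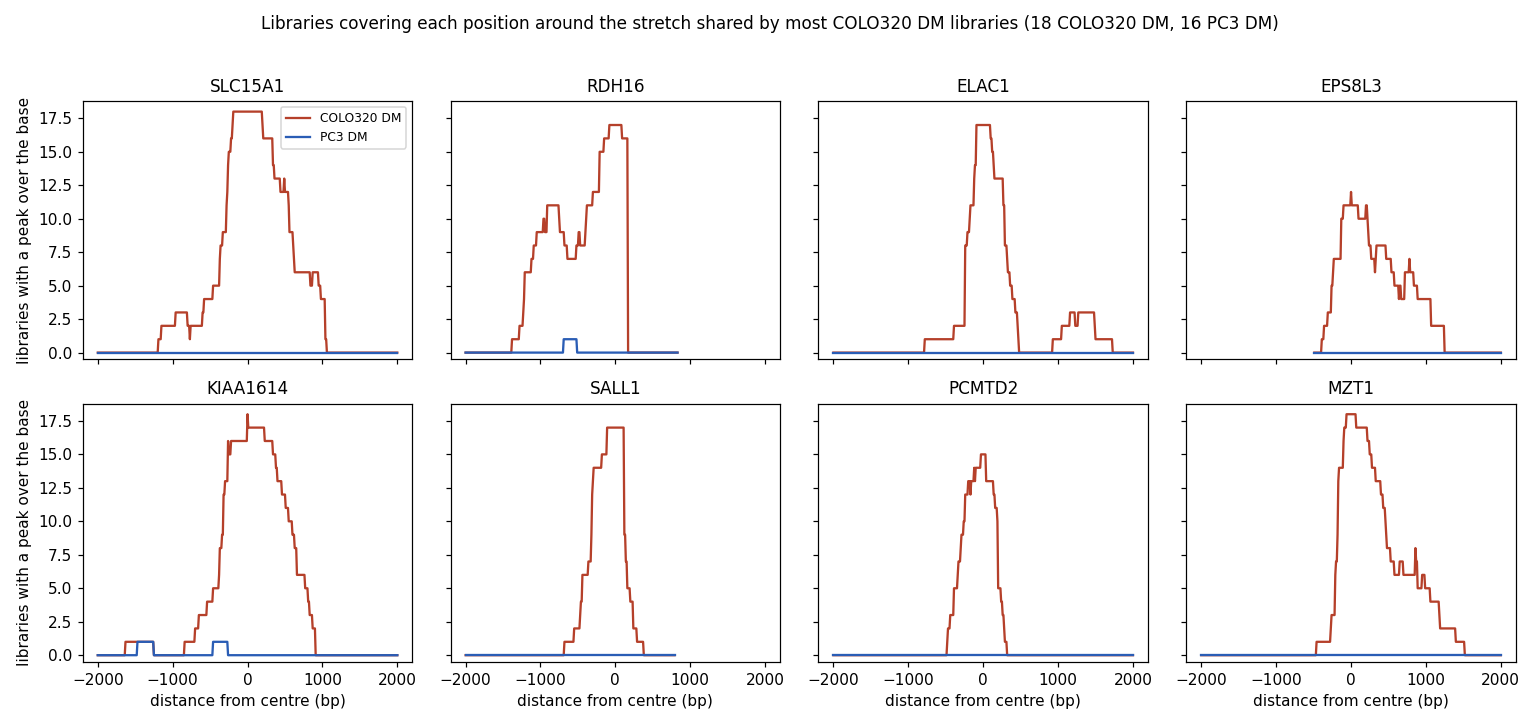
Number of libraries with a peak over each position (vertical axis) within 2000 bp of the centre of the stretch that the most COLO320 DM libraries covered (horizontal axis, bp), with COLO320 DM in red and PC3 DM in blue. The stretch reaches 18 COLO320 DM libraries in SLC15A1, KIAA1614 and MZT1 and 12 in EPS8L3; it is only 2 bp long in KIAA1614 and 1 bp in EPS8L3. PC3 DM reaches 1 library at most.

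ELAC1 encodes the short form of tRNase Z, which trims the 3′ ends of tRNAs. It lies on chromosome 18 from 50968040 to 50988121 on the plus strand. COLO320 DM libraries had from 0 to 1463 bp covered, median 548 bp, the 0 being vector replicate 2, the shortest list of the line. In PC3 DM all 16 libraries were at 0, so the ranges meet at 0. The main site, present in 17 libraries, had summits within 354 bp, from 50977076 to 50977430, in the middle of the gene and also inside the annotated lncRNA LOC107985152. ELAC1 had the highest median fold of the 8 main sites, 7.87, with 5.34 in ecSE3 replicate 2 and 11.3 in ecSE4 replicate 1. Its local background was close to that of other peaks, 1.66 times the sampled median, and the summit held 17 to 49 fragments. A second site between 50978262 and 50978649 occurred in 5 COLO320 DM libraries, 0 of them vector.

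EPS8L3 belongs to the family of EPS8, which links growth factor receptors to actin remodelling. It lies on chromosome 1 from 109750080 to 109763923 on the minus strand. COLO320 DM libraries had from 0 to 1173 bp covered, median 517.5 bp, the 0 being vector replicate 1, and all 16 PC3 DM libraries were at 0. The ranges of the lines meet at that value. The main site lay outside the gene, 1419 bp past its 3′ end at the median, with no annotated gene at that base. Without the 2 kb on either side, 1 COLO320 DM library had a peak in EPS8L3. Summits of all its peaks spread over 1196 bp, against 1225 bp at RDH16 and 1247 bp at MZT1. No base was covered in more than 12 libraries, and 12 of the 17 best summits lay within 250 bp of their median. The fold ran from 4.07 to 9.5, median 5.67, and the median place in the list was the top 29.1%.

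SALL1 encodes a zinc finger transcription factor of the spalt family needed for kidney development. The gene occupies chromosome 16 from 51135982 to 51152334, and its strand is not in the table used here. Covered length ran from 0 to 1022 bp in COLO320 DM libraries, median 503 bp, the 0 being ecSE2 replicate 1, and in PC3 DM only ecSE6 replicate 2 had a peak, of 328 bp. The ranges of the lines overlap. The SALL1 site was the tightest of the 8. Its summits in 17 libraries fell within 280 bp, from 51153374 to 51153654, and in 10 of them within 2 bp of 51153649. It lies 1316 bp beyond the end with the higher coordinate, with no annotated gene there, and without the 2 kb on either side 2 libraries had a peak. The fold ran from 3.62 to 7.81, median 5.52. Local background was 3.81 times the sampled median, and its part in the site was not tested.

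PCMTD2 encodes a protein with a domain like that of the enzyme repairing isoaspartyl residues in aged proteins. On chromosome 20 it runs from 64255748 to 64276226 on the plus strand. COLO320 DM libraries had from 0 to 605 bp covered, median 417.5 bp, which was the lowest median and the narrowest range of the 8 genes. In ecSE3 replicate 3 it was at 0, and in PC3 DM ecSEcombo replicate 1 had the only peak, of 193 bp. The ranges of the lines overlap. All 17 COLO320 DM peaks belonged to 1 site, with summits from 64269940 to 64270379, also inside the annotated lncRNA LOC124904957. The fold ran from 4.34 to 8.18, median 6.43. By median it had the fewest fragments of the 8, with 14 to 40 at the summit, and its place in the list reached down to the top 87.7%.

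MZT1 encodes a small protein that recruits the gamma-tubulin ring complex, the nucleator of microtubules, to spindle poles. It lies on chromosome 13 from 72708367 to 72727629 on the minus strand. Covered length ran from 275 to 2024 bp in COLO320 DM libraries, median 864.5 bp. Peaks occurred in 2 PC3 DM libraries, ecSE1 replicate 1 with 663 bp and ecSE2 replicate 3 with 248 bp, so the ranges of the lines overlap. None of their 4 peaks lay closer than 6078 bp to the stretch covered in at least 9 COLO320 DM libraries. The main site, 12752 bp inside the gene from its start, had a summit within 250 bp of the median in all 18 COLO320 DM libraries, and each covered the 127 bases from 72714730 to 72714856. The fold ran from 4.83 to 10.3, median 6.97, with 19 to 66 fragments at the summit.

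KIAA1614 encodes a protein of little known function. It lies on chromosome 1 from 180912897 to 180951614, and its strand is not in the table used here. COLO320 DM libraries had from 348 to 1603 bp covered, median 919.5 bp, and PC3 DM ecSEcombo replicate 1 had 418 bp, so the ranges overlap. Its main site lay at 89.0% of the gene from the lower coordinate, with summits from 180946782 to 180947419. KIAA1614 combined the lowest median fold of the 8 sites, 4.63, with a high local background, 5.98 times the sampled median. The summit held 27 to 76 fragments. The part of depth and DNA copies in that background was not tested.

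**Figure D4:**
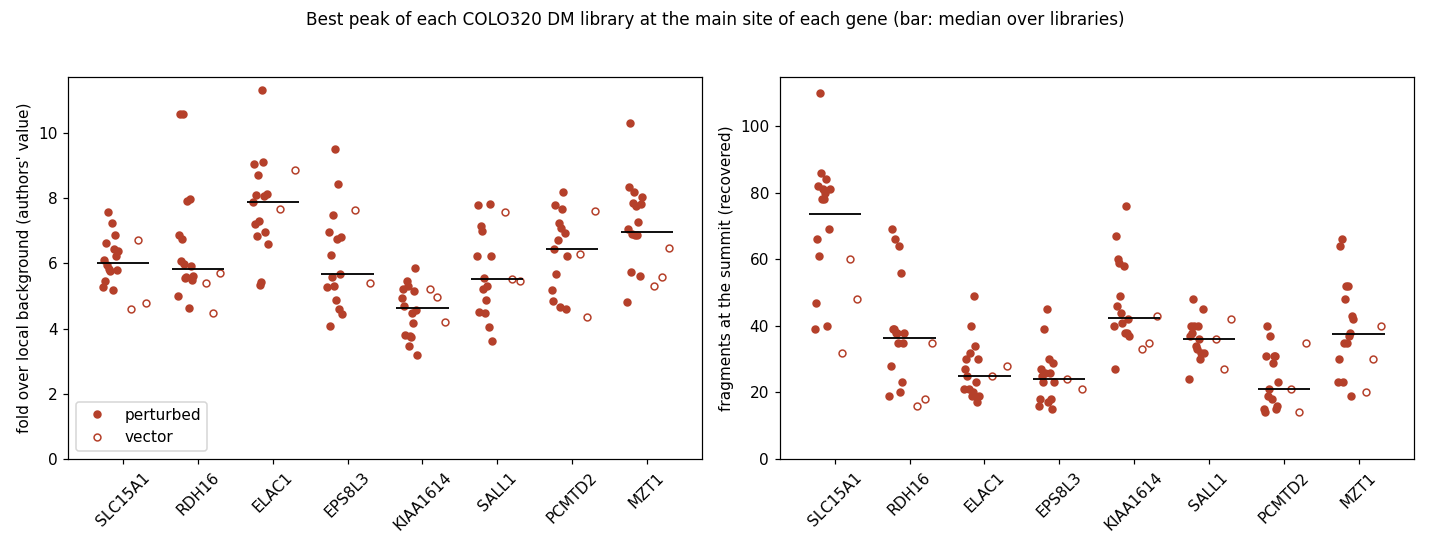
Best peak of each COLO320 DM library at the main site of each gene, as the authors' fold over local background (left, linear axis) and as fragments at the summit (right). Filled circles are perturbed libraries, open circles vector libraries, and bars medians over libraries. ELAC1 has the highest median fold, 7.87, and SLC15A1 the most fragments, median 73.5.

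Most of the few PC3 DM peaks lay away from the main sites, but these sites fill little of each window. Bases covered in at least 9 COLO320 DM libraries made up from 1.28% of the window at SLC15A1 to 2.85% at MZT1, and 9.5% at RDH16. Peaks placed anywhere in the windows would thus mostly lie away too, and avoidance of the sites was not tested. There were 10 PC3 DM peaks in 5 libraries, and 4 of them belonged to the longest PC3 DM list. Only 2 overlapped the span from the first to the last base covered in at least 9 COLO320 DM libraries, at RDH16 and KIAA1614, and both were in that list. The tallest was a second KIAA1614 peak, from 180945675 to 180945899, with a fold of 14.6 and 21 fragments, 907 bp from that span. Those of SLC15A1, SALL1 and PCMTD2 lay 51265, 10763 and 6621 bp away and held 4, 5 and 8 fragments. Some were near lesser COLO320 DM peaks. COLO320 DM ecSE3 replicate 1 had a summit 34 bp from that of the tallest, and ecSEcombo replicate 1 one 15 bp from the SLC15A1 summit. At MZT1, the joining of summits put PC3 DM ecSE1 replicate 1 in 1 site with 1 COLO320 DM library and in another with 3. In the first the summits were 460 bp apart and the peaks did not overlap. In the other the summits spread over 660 bp. By plasmid, 1 of 24 gene and library pairs had a peak in each of ecSE1, ecSE2 and ecSE6, 0 of 16 in ecSE7, 3 of 24 in ecSEcombo and 1 of 16 in the vector.

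Whether the sites kept their extent when the plasmids were changed was examined within COLO320 DM. This is not the contrast between lines that chose the genes, but it uses the same COLO320 DM libraries. A peak was present in 24 of 24 gene and library pairs in ecSE1, ecSE4 and ecSEcombo, 23 of 24 in ecSE2 and in ecSE3, and 22 of 24 in the vector. The choice of genes with a peak in nearly all COLO320 DM libraries, vector included, largely fixed these counts. Covered length was compared with limma on log2(covered bp + 100), which understates the change of short lengths, over 2659 genes with a peak in at least 9 libraries. For the mean of the perturbed groups against the vector, 0.0376% of genes, 1 in all, passed an adjusted p of 0.05, and 226 had an unadjusted p under it. That gene was PLB1, with 876.5 ± 336.8 bp in perturbed libraries (SD, n = 15) and 0 ± 0 bp in vector libraries (SD, n = 3), at a limma adjusted p of 0.00376. It is not a member. None of the 8 members was called. A gene with no peak in any of the 3 vector libraries, like PLB1, could not have been a member, so the choice also limited these differences.

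The members' differences lay in the range of genes at large. The median log2 difference, perturbed minus vector, was 0.39 over the 8 genes, 6 of them above 0, and 0.53 over all genes tested, 77.6% of them above 0. The vector lists held 16471, 9385 and 24353 peaks, and list length was not scaled out of these differences. With log10 of the number of peaks as a covariate no member was called either. No gene passed limma's F test for any difference among the 6 groups (percentage called 0), with 140 genes at an unadjusted p under 0.05. The 8 members had adjusted p from 0.974 to 0.982 in that test by limma.

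SLC15A1 had covered lengths of 982, 1602 and 1538 bp in ecSE1 and 1552, 1183 and 1403 bp in ecSE2. In ecSE3 they were 1674, 1191 and 1250 bp, in ecSE4 2690, 1147 and 2551 bp and in ecSEcombo 1250, 974 and 963 bp, against 1472, 530 and 1180 bp in the vector. The longest stretches were in 2 of the ecSE4 libraries, and the remaining ecSE4 library lay within the vector's range. Perturbed libraries averaged 1463 ± 523 bp (SD, n = 15) and vector libraries 1061 ± 482 bp (SD, n = 3), a log2 difference of 0.47 (SE 0.47, limma adjusted p = 0.8).

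RDH16 was as variable within groups as between them. It had 372, 248 and 1077 bp covered in ecSE1, 1387, 374 and 868 bp in ecSE2 and 1025, 962 and 1131 bp in ecSE3. In ecSE4 it had 993, 390 and 1075 bp and in ecSEcombo 657, 1157 and 1448 bp, against 314, 436 and 1547 bp in the vector. Its highest value in the line was a vector library. The log2 difference was 0.32 (SE 0.56, limma adjusted p = 0.889), and without vector replicate 1 it was -0.08.

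EPS8L3 had the largest log2 difference of the 8 genes, ahead of ELAC1 and KIAA1614. It had from 265 to 1173 bp covered in perturbed libraries, median 681 bp, against 0, 235 and 446 bp in the vector. Its mean was 648 ± 266 bp in perturbed libraries (SD, n = 15) and 227 ± 223 bp in vector libraries (SD, n = 3), and the ranges overlap. The log2 difference was 1.41 (SE 0.56), with a limma p of 0.0205 that became 0.506 after Benjamini-Hochberg adjustment over all genes tested. A two-sided exact permutation test on the means gave p = 0.0245, adjusted 0.874, the smallest adjusted value of any gene in that test. Without vector replicate 1, the library at 0, the log2 difference was 0.72, and with any 1 library left out the lowest limma adjusted p was 0.15.

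KIAA1614 had from 607 to 1603 bp covered in perturbed libraries, median 990 bp, against 348, 487 and 866 bp in the vector. Its mean was 1057 ± 303 bp in perturbed libraries (SD, n = 15) and 567 ± 268 bp in vector libraries (SD, n = 3). All libraries of ecSE3, at 1603, 1350 and 1128 bp, of ecSE4, at 921, 1041 and 1389 bp, and of ecSEcombo, at 990, 883 and 1518 bp, lay above the highest vector value. In ecSE1, at 607, 640 and 918 bp, and in ecSE2, at 835, 830 and 1200 bp, 2 of 3 libraries lay within the vector's range. The log2 difference was 0.82 (SE 0.45, limma adjusted p = 0.612), and the exact permutation test gave p = 0.0184, adjusted 0.874.

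The remaining genes did not pass the test either. ELAC1 had a log2 difference of 1.00 (SE 0.57, limma adjusted p = 0.619), which without vector replicate 2, the library at 0, was 0.12. In the vector it had 551, 0 and 507 bp covered, and the longest was 1463 bp in ecSE3 replicate 2. MZT1 had 0.13 (SE 0.54, limma adjusted p = 0.952), SALL1 -0.05 (SE 0.57, limma adjusted p = 0.986) and PCMTD2 -0.29 (SE 0.52, limma adjusted p = 0.889).

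Neighbouring genes varied in how often they had a peak. XPR1, next to KIAA1614, had a peak in 18 COLO320 DM and 16 PC3 DM libraries, and ME2, next to ELAC1, in 14 and 4. BORA, which starts 294 bp from MZT1, had one in 3 and 2, and SDR9C7, next to RDH16 and of the same enzyme family, in 1 and 2. GSTM3 and CSF1, on either side of EPS8L3, had peaks in 0 and 1 COLO320 DM libraries and in 3 and 0 PC3 DM libraries. Peaks within 1 Mb of a gene but outside its window, per 10000 peaks of the list, had a higher median over COLO320 DM than over PC3 DM libraries for every gene except EPS8L3. The medians were 17.7 and 4.97 at MZT1, 11.4 and 6.24 at SALL1, 9.1 and 5.77 at ELAC1, and 8.98 and 3.63 at SLC15A1. At RDH16 they were 8.65 and 4.42, at KIAA1614 5.43 and 3.18, and at PCMTD2 2.74 and 1.28, while EPS8L3 had 3.03 and 4.0. As numbers of peaks, the medians were 37 and 14.5 at MZT1, 5 and 4 at PCMTD2, and 5.5 and 10.5 at EPS8L3. These values compare the same lines that chose the genes and are a description.

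Relatives of the 8 genes were looked up in the same way. Of 32 listed, 0 had a peak in at least 17 COLO320 DM libraries, 2 in at least 9 and 13 in 0. Fisher's exact test between lines, adjusted over all 10067 genes, could be made for 19 of them and called 0 higher in COLO320 DM and 1 higher in PC3 DM, where 5.74% of all genes tested were called. The one called was RDH10, a retinol dehydrogenase, with a peak in 1 COLO320 DM library and 9 PC3 DM libraries (adjusted p = 0.0364). HSD17B6, a hydroxysteroid dehydrogenase close to RDH16 in sequence and position, was the relative most often marked in COLO320 DM, with 14 and 5 libraries (adjusted p = 0.0992). RDH12 had 4 and 12, EPS8 7 and 14, DHRS9 2 and 9 and PCMTD1 5 and 11. The median difference was -18.8 percentage points over the relatives tested and -16 over all genes tested.

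Genes with the most similar covered length over the 34 libraries were found by Spearman's rho. Both lines enter it together, and how far it follows the split by line or list length was not tested. PDX1, the pancreatic and duodenal homeobox factor, was the most alike for RDH16, ELAC1, EPS8L3, KIAA1614, SALL1 and PCMTD2, with rho from 0.86 to 0.93. SLC15A1 was most like STK3 and NQO2, at 0.89 each, RDH16 next most like B4GALNT2, at 0.9, and MZT1 most like LOC124900839, at 0.87.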

How the data were processed

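The authors deposited 34 narrow peak lists, each from a single library. The genome build hg38 and the tools MACS2 2.2.7.1, Bowtie2 2.3.5, Trim Galore 0.6.6, bedtools and SAMtools are named per the submitters' processing notes, in no stated order. The deposited fold was read as the authors' ratio of a summit to local background after the same small constant was added to both. That constant lowers the fold most where background is low. The -log10 p-values and -log10 q-values in the deposited lists belong to each peak, and the authors' display score was not used. The use of a control library could not be learned from the labels. Whole fragments at the summit were recovered from fold and p-value, within 0.0005 in -log10 p, for 100% of the 201 member peaks. Genes and 2 kb flanks came from RefSeq, on autosomes and X. Groups came from the sample titles. Members and gene lists were chosen with earlier results of these data known. Named genes are the members, their nearest neighbours, the 6 relatives with the largest difference between lines, the most alike genes and those near the bounds. PLB1 was named after its values were seen. Tests used limma 3.58.1 in R 4.3.3, with Benjamini-Hochberg adjustment, and scipy 1.17.1, and were tested on simulated data. Alternatives were stricter q-values, equal lists, other overlaps, pseudocounts and filters, genes without flanks, a replicate block and each library left out.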

Additional observations from a re-analysis of the deposited data

How the results depend on the processing

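The 140 gene and library pairs with a peak were 90 when an overlap of at least 500 bp was required. They were 127 with lists of equal length, and from 132 to 140 with 1 library left out. Under the 500 bp overlap SLC15A1 had 17 COLO320 DM libraries, KIAA1614 16, MZT1 13, RDH16 12, ELAC1 10, SALL1 8, EPS8L3 7 and PCMTD2 7. With lists of equal length SLC15A1 and MZT1 had 18, RDH16 and ELAC1 17, KIAA1614 16, SALL1 15, PCMTD2 14 and EPS8L3 12. In each gene 1 site recurred in as many of these libraries. Over all genes, 126 had a peak more often in COLO320 DM and 578 in PC3 DM. These counts were 283 and 181 with q-values of 1e-05 or less, 322 and 305 with lists of equal length, and 487 and 31 with the 500 bp overlap. With 1 library left out they ran from 92 to 170 and from 385, without PC3 DM ecSEcombo replicate 1, to 1321, without COLO320 DM ecSE1 replicate 2. Vector libraries alone gave no value, since 3 against 2 cannot pass the filter.

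Perturbed against vector, limma called 1 gene. It called 2 with list length as a covariate, with a pseudocount of 10 bp or with lists of equal length, and 3 without flanks. Exact permutation called 0, with 98 at an unadjusted p under 0.05, and its smallest possible p is 0.00123. At least 66 genes at that p would be needed for any to pass adjustment, so it could hardly call a single gene. With 1 library left out limma called from 0 to 14: 0 without vector replicate 1, 14 without vector replicate 3, 8 without ecSE1 replicate 1 and 2 without ecSE1 replicate 2. The F test called 0 genes, but 2 with the covariate, 4 with a pseudocount of 10 bp, and 1 each with a pseudocount of 1000 bp, a filter of 3 libraries, lists of equal length or no flanks. No alternative called a member in 221 member contrasts, and 10 changed sign. MZT1 had -0.02 with the covariate and with equal lists, and -0.0017 without vector replicate 2. SALL1 had 0.01 with a pseudocount of 1000 bp, 0.26 without vector replicate 3, 0.13 without ecSE2 replicate 1, 0.02 without ecSE3 replicate 2 and a difference in means of 12.3 bp. PCMTD2 had 0.56 with the stricter q-values and RDH16 -0.08 without vector replicate 1. With 1 library left out, RDH16 ran from -0.08 to 0.92, SALL1 from -0.28 to 0.26 and MZT1 from -0.0017 to 0.34. The causes were not tested.

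Same-numbered libraries did not deviate together: 45 pairs had correlations of -0.14 to 0.12, and 5 of 18 libraries correlated best with their own number. A fit with the replicate block called 1 gene, and its F test 0. Depth is unknown, so a missing peak cannot be told apart from too few reads.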
